A study of Oryctolagus cuniculus with 36 samples.

Results

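The nuclear genes for the mitochondrial respiratory chain and ATP synthase were followed in RNA sequencing of rabbit liver. Members were all rows of the count table whose symbol begins with NDUFA, NDUFB, NDUFC, NDUFS or NDUFV and a digit, is SDHA, SDHB, SDHC or SDHD, or begins with UQCR, with COX4 to COX8 or with ATP5, and 55 of the 23394 rows matched. They comprised 30 genes of complex I, 4 of complex II, 1 of complex III, 3 of complex IV and 14 of complex V, and 3 genes whose symbols match but whose proteins are not subunits. The study concerns repair by CRISPR/Cas9, in newborn rabbits, of hereditary tyrosinemia type I, a lack of the last enzyme of tyrosine breakdown, which the gene FAH encodes. Titles divide 36 liver libraries into the groups WT, FA and FK, each with 3 replicates of 4 libraries, and the labels do not spell these names out. All 36 libraries, WT included, carry the same label of a rabbit tyrosinemia model, so only the titles tell the groups apart. Genotype, agent, age at sampling and number of animals are not stated for any group. The 4 libraries of a replicate were summed, and because no label ties replicates to separate animals, the p-values describe spread among these 9 sums and nothing beyond it.

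Complexes I to IV pass electrons from NADH and succinate to oxygen, and complexes I, III and IV pump protons across the inner mitochondrial membrane while doing so. Complex V, the ATP synthase, lets the protons flow back and makes ATP. Complexes I, III, IV and V are assembled from subunits encoded in the nucleus and in mitochondrial DNA, whereas all subunits of complex II are nuclear. Hepatocytes are rich in mitochondria, which also house the urea cycle, fatty acid oxidation and steps of gluconeogenesis. Mitochondrially encoded subunits were not analysed here, since 0 of 26 listed symbols had a row.

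Replicates held 53.2 to 78.6 M counts, libraries 11.7 to 22.5 M. FAH stood at 237, 271 and 218 CPM (counts per M counts, scaled with edgeR's TMM factors) in the 3 WT replicates, 25.7, 24.7 and 19.6 in FA, and 16.4, 11.8 and 14.6 in FK, so FAH fell in both groups (edgeR quasi-likelihood test, log2 change -4.08, adjusted p = 0.000466 in FK; -3.37, adjusted p = 0.00183 in FA). FK replicates 1 and 2 stood apart from FK replicate 3. The summed level of erythroid markers (12 of 14 listed genes in the table) was 653 to 2470 CPM in WT, 384 to 930 in FA, and 6980, 16336 and 634 in FK replicates 1, 2 and 3. Neutrophil markers (7 of 10) summed to 15.99 to 26.8 CPM in WT, 18.3 to 40.2 in FA, and 1191, 2051 and 26.9 in FK, and cell division genes (10 of 10) to 16.01 to 20.8, 19.5 to 22.95, and 316, 727 and 22.2. Hepatocyte markers (7 of 8) summed to 184428 to 249798 CPM in WT, 194183 to 264043 in FA, and 197486, 129540 and 215116 in FK. Macrophage markers (6 of 8) summed to 172 to 258 CPM in WT, 113 to 139 in FA, and 379, 291 and 154 in FK, and lymphocyte markers (7 of 8) to 7.69 to 9.28, 3.69 to 6.31, and 1.74, 3.44 and 2.26. Stellate cell and fibroblast markers (8 of 8) summed to 207 to 276 CPM in WT and 122 to 185 in FA. In FK they were at 186, 274 and 166. Endothelial markers (6 of 6) summed to 211 to 259, 115 to 178, and 294, 182 and 170. Bile duct markers (5 of 6) summed to 7.84 to 9.92, 3.71 to 10.2, and 19.2, 38.0 and 3.97. Muscle markers (4 of 6) summed to at most 1.34 CPM. No marker of these lists was at 0 in every replicate, and the part of other cells in the member values was not tested. In bulk liver, fewer cells of a type and less RNA per cell cannot be told apart.

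Respiratory chain genes differed little between the groups. Of the 55 members, 54 passed the filter on low counts, with NDUFA4L2 the exception. None of the 54 was called at a Benjamini-Hochberg adjusted p under 0.05 by edgeR's quasi-likelihood test between FK and WT, where 4.77% of the 14939 genes tested were called, between FA and WT, where 0.167% were called, or between FA and FK, where 0% were called. At an unadjusted p under 0.05, 1 member passed between FK and WT, 4 between FA and WT and 0 between FA and FK, against 26.9%, 10.2% and 21.9% of all genes. DESeq2 called 1 member, ATP5SL, between FK and WT, where it called 17.5% of genes, and 0 between FA and WT, where it called 2.38%, and between FA and FK, where it called 11.9%. The WT replicates are shared by FK against WT and FA against WT, so those values are given side by side and were not compared with each other.

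Each replicate's summed members showed which sets carried the differences that there were. The 54 tested members together reached 4785, 4946 and 4586 CPM in WT, 6217, 4867 and 5306 in FA, and 5556, 5729 and 4398 in FK. FA replicate 1 was the highest and FK replicate 3 the lowest of the 9. FA replicate 2 lay within the WT range, and FK was split, with replicates 1 and 2 above all WT replicates and replicate 3 below them. Scaled by library, library 1 of FK replicate 2 held 6940 CPM of members and its other libraries 4760 to 5322. Libraries of WT held 4561 to 5248 CPM. In FA replicate 1, 53 of 54 members lay above their WT mean, against 31 and 36 in FA replicates 2 and 3. In FK the numbers were 40, 37 and 16. The first principal component of the levels of the subunit genes, with 42.4% of their variance, likewise placed FA replicate 1 and FK replicate 3 at its ends, whereas that of all genes, with 56.7%, placed FK replicates 1 and 2 apart from the other 7 sets.

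**Figure D1:**
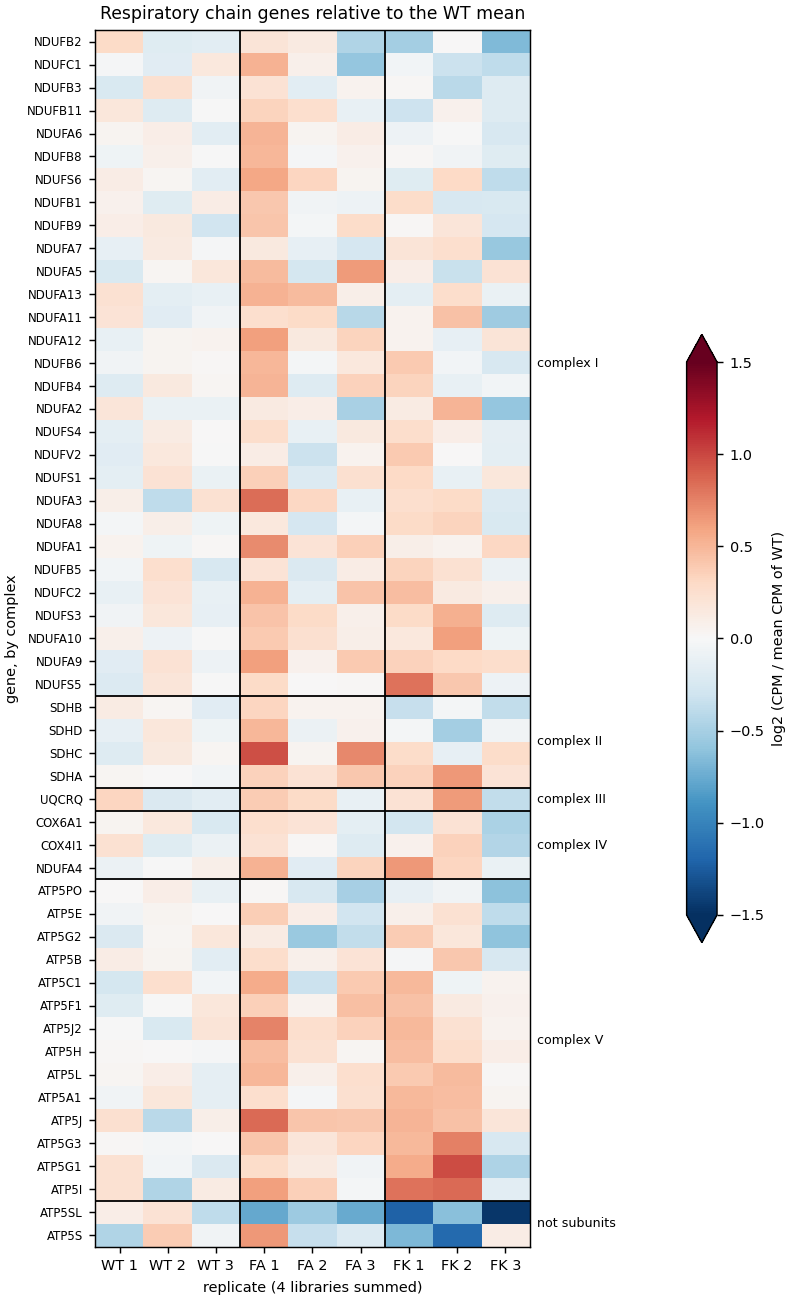
Heat map of 53 of the 54 tested genes (rows, grouped by complex and ordered by the FK and WT change) in the 9 replicates (columns), coloured by log2 of CPM over the mean CPM of WT. FA replicate 1 is above the WT mean in nearly all rows and FK replicate 3 below it in most, and ATP5SL is the row that is low in all FA and FK replicates.

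The median fitted log2 change over the 54 members was 0.08 between FK and WT and 0.19 between FA and WT, against 0.05 and 0.00 over all genes tested. Positive changes numbered 37 of 54 in FK and 46 of 54 in FA. Single members ranged from -1.06 to 0.57 in FK and from -0.69 to 0.63 in FA. Scaling by library totals alone moved the median of all genes between FK and WT from 0.05 to 0.21 and that of the members from 0.08 to 0.26, so in FK the members lay close to all genes under both scalings. Between FA and WT the same step gave -0.03 for all genes and 0.15 for the members.

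Complex I, the NADH dehydrogenase that feeds electrons into the chain, gave a median change of 0.05 in FK and 0.19 in FA over its 30 members. Changes were positive in 20 of 30 members in FK and 25 of 30 in FA, and they ran from -0.36 (NDUFB2) to 0.43 (NDUFS5) in FK and from -0.07 (NDUFA7) to 0.44 (NDUFA1) in FA. By replicate, the complex I median relative to WT was 0.42, 0.01 and 0.08 in FA and 0.14, 0.09 and -0.18 in FK. FA replicate 1 thus stood above the other 8 replicates, and all 30 members were above their WT mean in it. In FK replicate 3, 6 of 30 were.

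NDUFA1, a small membrane-spanning accessory subunit, measured 26.4, 24.5 and 25.8 CPM in WT, 41.8, 29.6 and 32.7 in FA, and 27.2, 26.6 and 31.7 in FK. All 3 FA and all 3 FK replicates were above every WT replicate, although the test called neither change (edgeR, log2 0.44 ± 0.18 SE, adjusted p = 0.443 in FA; 0.16 ± 0.18, adjusted p = 0.606 in FK). NDUFA9, an accessory subunit of the joint between the 2 arms of the complex, was at 46.3, 60.7 and 49.3 CPM in WT and 66.0, 64.1 and 62.5 in FK. Its FK replicates lay just above the highest WT replicate (log2 0.30 ± 0.19, adjusted p = 0.351), while FA, at 79.5, 54.4 and 68.6 CPM, overlapped with WT. NDUFA12, an accessory subunit of the peripheral arm, was, with NDUFB6, one of the pair nearest the complex median in FK, with 34.7, 38.6 and 38.9 CPM in WT and 38.7, 34.3 and 42.7 in FK. In FA it was at 57.3, 41.3 and 47.1 CPM, above all WT replicates, with a log2 change of 0.38 ± 0.18 that was not called (adjusted p = 0.506).

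NDUFS5, an accessory subunit on the intermembrane-space side, had the highest fitted change of complex I in FK. It stood at 24.6, 32.3 and 28.4 CPM in WT and at 49.97, 37.6 and 27.1 in FK, so FK replicates 1 and 2 were above WT and replicate 3 was not (log2 0.43 ± 0.24, edgeR adjusted p = 0.281). NDUFB2, a small membrane-arm subunit, had the lowest, with 33.7, 24.4 and 24.7 CPM in WT and 19.4, 27.7 and 17.4 in FK, which overlapped (-0.36 ± 0.26, adjusted p = 0.396). NDUFA11, an accessory subunit of the membrane arm, measured 40.3, 31.1 and 33.8 CPM in WT, 41.8, 42.8 and 26.3 in FA and 36.2, 47.3 and 24.3 in FK, so it was low in the third replicate of both groups. No member of complex I lay 1 or more on the log2 scale from the median of the others in either group.

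Complex II, succinate dehydrogenase, joins the citric acid cycle to the chain, and its 4 genes moved unevenly in FK. SDHA and SDHB encode the catalytic pair, a flavoprotein and an iron-sulphur protein, and SDHC and SDHD the membrane anchors. SDHA measured 298, 292 and 284 CPM in WT, 371, 338 and 386 in FA, and 369.9, 459 and 336 in FK. Every FA and FK replicate was above the WT range, which was narrow at 291 ± 6.93 CPM (SD, n = 3), but neither change was called (edgeR, log2 0.41 ± 0.22 SE, adjusted p = 0.263 in FK; 0.33 ± 0.22, adjusted p = 0.669 in FA). SDHB measured 147, 137 and 120.1 CPM in WT, 169, 140.2 and 139.7 in FA, and 106, 132 and 104 in FK. FK replicates 1 and 3 were the lowest of the 9 and FK replicate 2 lay within the WT range, and the log2 change was -0.24 ± 0.20 (adjusted p = 0.459).

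The ratio of SDHA to SDHB within a replicate, chosen after the values were seen and given without a test, was 2.03, 2.13 and 2.37 in WT, 2.20, 2.41 and 2.77 in FA, and 3.49, 3.49 and 3.23 in FK. Group means were 2.17 ± 0.17, 2.46 ± 0.29 and 3.40 ± 0.15 (SD, n = 3). FK did not overlap with WT or with FA, and the part of other cells in this ratio was not tested. The pair joins the highest and the lowest FK change of complex II, which favours such a separation. Between FK and WT, log ratios to the median subunit did not overlap for 27.2% of all genes. The ratio does not depend on the scaling between replicates. SDHA and SDHB differ in length and CPM is not divided by it, so the ratio compares replicates and not the amounts of the 2 transcripts.

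SDHC was at 144, 181 and 167 CPM in WT, 320.1, 169 and 271 in FA, and 198, 151 and 199 in FK. FA replicates 1 and 3 were well above WT and replicate 2 was within its range, and this was the highest fitted change of any member in FA (log2 0.63 ± 0.27, edgeR adjusted p = 0.490). In FK, SDHC and SDHD lay on either side of the complex median. SDHD was at 136, 168 and 142 CPM in WT, 209, 139.98 and 155 in FA, and 145, 104 and 143 in FK, overlapping throughout. The median change of complex II was -0.01 in FK, from 2 members up and 2 down, and 0.25 in FA with all 4 positive, and without scaling factors the FK median was 0.13.

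Complex III, which passes electrons from ubiquinol to cytochrome c, was represented among the members by UQCRQ, a small accessory subunit. UQCRQ measured 174, 119 and 125 CPM in WT, 181, 170.4 and 129 in FA, and 162, 216 and 108 in FK. The groups overlapped, with log2 changes of 0.22 ± 0.30 in FK and 0.20 ± 0.30 in FA (edgeR adjusted p = 0.676 and 0.881). Complex IV, cytochrome c oxidase, had 3 members. COX4I1, the widely expressed form of subunit 4, was closest to the complex median and measured 252, 191 and 203 CPM in WT, 249.9, 217 and 189 in FA, and 226, 274 and 159 in FK (0.03 ± 0.26 in FK, adjusted p = 0.958). COX6A1, the non-muscle form of subunit 6a, was at 106, 116 and 87.8 CPM in WT, 123, 119 and 93.4 in FA and 85.3, 119.6 and 74.3 in FK. NDUFA4 carries a complex I name but its protein is a complex IV subunit, and it stood at 111, 118 and 125 CPM in WT, 169, 105 and 148 in FA and 185, 147 and 109.9 in FK. FK replicate 3 was lowest of the 9 for UQCRQ, COX4I1 and COX6A1 and below the WT mean for NDUFA4. No gene of complexes III and IV was called, and the complex IV medians were 0.03 in FK and 0.11 in FA.

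The rule for members reads symbols, and most genes of complexes III and IV carry only a LOC identifier in the table. RefSeq's gene table for assembly mOryCun1.1, matched by gene number, named 21 such rows as subunits, and these were added after the member values had been seen. Of the 21, 17 passed the filter: 6 of complex III, 9 of complex IV, ATP5MJ of complex V and NDUFV3 of complex I. None of the 17 was called in FK or FA, where 4.77% and 0.167% of all genes were. Changes were positive in 17 of 17 in FK and 16 of 17 in FA, beside 7943 and 7520 of all 14939 genes. By replicate, 16, 16 and 6 of the 17 lay above the WT mean in FK and 16, 9 and 10 in FA, so FK replicate 3 did not share the higher level. With these rows the complex III median became 0.31 in FK and 0.29 in FA over 7 genes, and the complex IV median 0.28 and 0.26 over 12. The smallest adjusted p among them in FK was that of COX7A2L, which helps join complexes III and IV into supercomplexes and measured 30.7, 41.6 and 40.0 CPM in WT, 66.1, 38.5 and 50.5 in FA, and 80.0, 53.3 and 48.5 in FK (edgeR, log2 0.69 ± 0.27, adjusted p = 0.145). All FK replicates of COX7A2L were above WT.

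UQCRH, the hinge protein beside cytochrome c1, and UQCRFS1, the iron-sulphur protein of complex III, were likewise above all WT replicates in FK. With COX7A2L they made 3 of the 17 added rows, a share near the 13.9% of all genes that were above WT in this way. UQCRH was at 95.8, 101 and 102 CPM in WT and 166, 149 and 102 in FK, with replicate 3 at the edge of the WT range (log2 0.48 ± 0.25, edgeR adjusted p = 0.245). UQCRFS1 was at 107, 121 and 105 CPM in WT and 159.8, 145 and 122 in FK (0.36 ± 0.20, adjusted p = 0.291). Tissue-restricted forms of complex IV subunits were near the limit of counting. COX7A1, the heart and muscle form of subunit 7a, had 8, 13 and 57 counts over the 3 replicates of WT, FA and FK. COX6A2, its counterpart for subunit 6a, had 5, 5 and 16, COX4I2 had 5, 11 and 8, and COX7B2 had 8, 0 and 0. A count of 0 still allows up to 3 counts over a group, for counting error only, and these 4 genes were not tested.

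Complex V had a median change of 0.28 in FK and 0.25 in FA over its 14 genes, close to those of complexes III and IV once the RefSeq-named rows were included. Changes were positive in 12 of 14 in both. By replicate the median relative to WT was 0.47, 0.34 and -0.05 in FK and 0.40, 0.09 and 0.23 in FA, so FK replicate 3 lay at the WT level while FK replicates 1 and 2 were above every WT replicate. The 4 F1 genes, which encode the catalytic head or the shaft that turns in it (ATP5A1, ATP5B, ATP5C1 and ATP5E), had a median of 0.13 in FK. The 3 membrane genes (ATP5I, ATP5J2 and ATP5L) had 0.31, the 4 stalk genes (ATP5F1, ATP5H, ATP5J and ATP5PO) 0.25, and the 3 genes for subunit c 0.39. In FA the same sets gave 0.17, 0.34, 0.27 and 0.13.

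**Figure D2:**
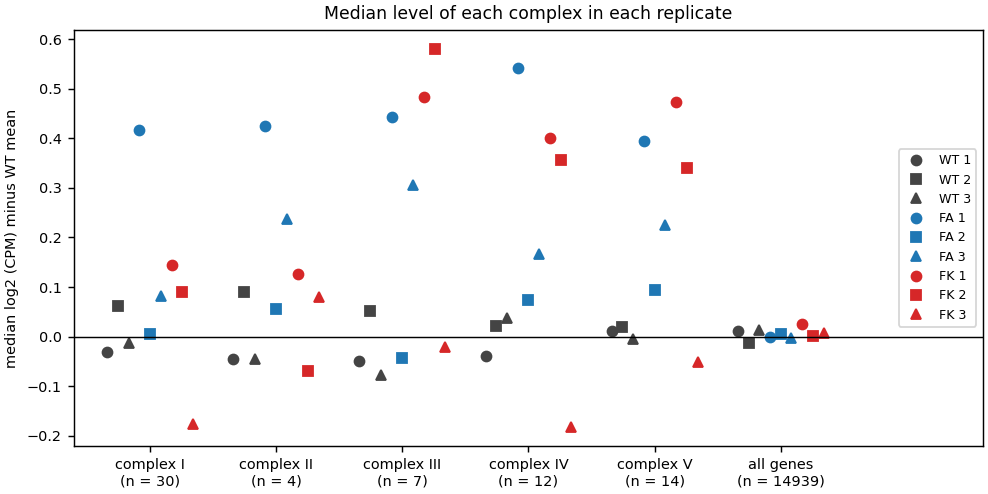
Median over genes of log2 CPM minus the mean log2 CPM of WT (vertical axis) for each complex and for all tested genes, with 1 point for each replicate, coloured by group and shaped by replicate number; complexes III and IV include the rows named from RefSeq. FA replicate 1 is high in every complex (0.42 in complex I, 0.40 in complex V), FK replicates 1 and 2 are above every WT replicate in complexes III to V, and FK replicate 3 lies at or below 0 in all but complex II.

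ATP5A1, the alpha subunit of the head, measured 400.1, 465 and 379 CPM in WT, 492, 409 and 490.1 in FA, and 580.4, 573 and 425 in FK. ATP5B, the beta subunit that holds the catalytic sites, measured 471, 446 and 388 in WT, 524, 459 and 499.9 in FA, and 431, 576 and 369.6 in FK. FK replicates 1 and 2 exceeded WT for ATP5A1 and only FK replicate 2 did for ATP5B, and neither gene was called (edgeR, log2 0.34 ± 0.25, adjusted p = 0.403; 0.08 ± 0.25, adjusted p = 0.876 in FK). ATP5H, a stalk subunit and, with ATP5J2, nearest the complex median in FK, had a tight WT level of 90.2, 89.6 and 88.4 CPM, against 124, 105 and 91.1 in FA and 123, 108 and 96.0 in FK. Both groups were above WT throughout, with log2 changes of 0.29 ± 0.19 (adjusted p = 0.364) in FK and 0.25 ± 0.19 (adjusted p = 0.714) in FA. ATP5J, another stalk subunit, was at 70.2, 45.1 and 63.4 CPM in WT and at 107, 79.6 and 79.1 in FA, all above WT (0.57 ± 0.23, adjusted p = 0.442).

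ATP5I, the small membrane subunit e, had the highest change of any member in FK, log2 0.57 ± 0.31 (edgeR adjusted p = 0.270). It measured 18.7, 11.7 and 17.4 CPM in WT and 27.9, 28.7 and 14.3 in FK, with replicate 3 inside the WT range. ATP5PO, which encodes the subunit that ties the stalk to the head, went against most of its complex. ATP5PO measured 209, 223 and 192 CPM in WT, 209.8, 176 and 148 in FA, and 191, 199.7 and 136 in FK, with log2 changes of -0.24 ± 0.23 in FK and -0.22 ± 0.23 in FA (adjusted p = 0.539 and 0.809). It lay 0.53 below the median of the other complex V genes in FK and 0.48 below in FA. Its log ratio to the median gene of its complex was lower in all 3 FK and all 3 FA replicates than in any WT replicate. Such non-overlapping ratios occurred for 5 of the 53 members that had others to be set against in FK and for 11 of 53 in FA, and for 27.2% and 28% of all genes set against the median subunit.

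Subunit c, which forms the rotating ring, is encoded by ATP5G1, ATP5G2 and ATP5G3, whose mature proteins are identical, and reads shared by these similar genes are divided by estimation. ATP5G3 was at 113, 109 and 111 CPM in WT, 148, 126 and 138 in FA, and 155, 188 and 93.7 in FK. FA was above WT in all replicates (log2 0.31 ± 0.26, edgeR adjusted p = 0.748), whereas in FK replicates 1 and 2 were above and replicate 3 below (0.39 ± 0.26, adjusted p = 0.358). ATP5G1 ran at 78.7, 65.4 and 58.2 CPM in WT, 81.8, 74.2 and 65.0 in FA, and 98.9, 133 and 48.8 in FK. ATP5G2 ran at 84.3, 100.1 and 109.96 in WT, 107, 66.8 and 75.9 in FA, and 128, 110.3 and 64.6 in FK, and was the complex V gene with the lowest change in FA (-0.24 ± 0.29, adjusted p = 0.844). Among the counts of the 3 genes, ATP5G3 took 40.1 ± 0.65% in WT, 46.9 ± 2.78% in FA and 43.1 ± 2.34% in FK (SD, n = 3). Its share was above WT in every FA replicate. These shares were chosen after the values were seen and are given without a test. Between FA and WT, log ratios to the median subunit did not overlap for 28% of all genes.

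**Figure D3:**
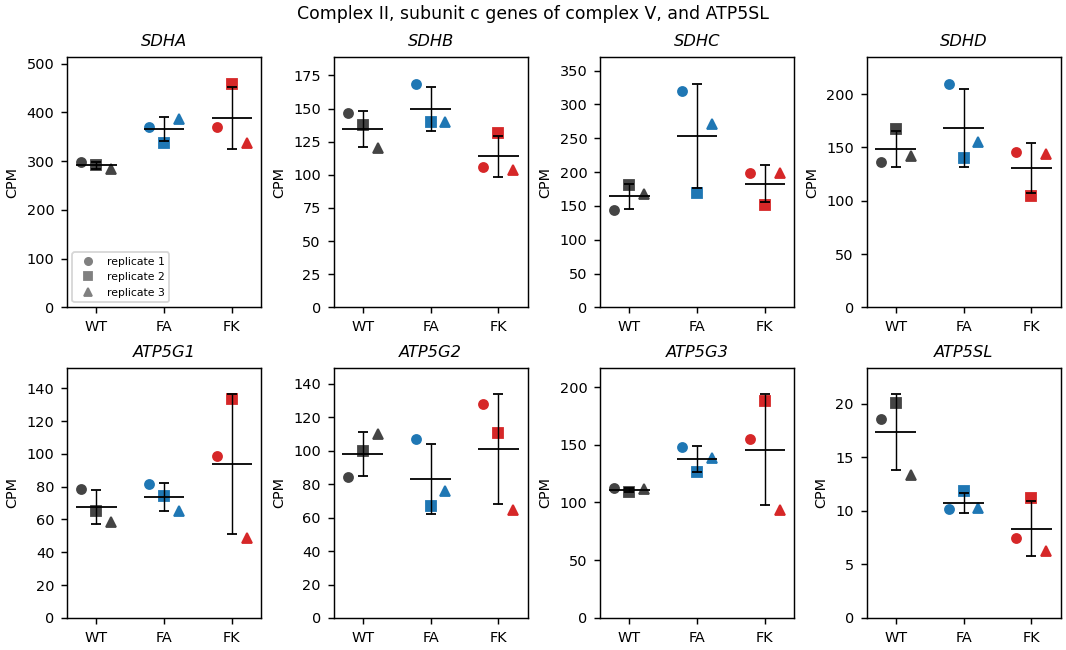
CPM (vertical axes, from 0) of the 4 complex II genes, the 3 subunit c genes and ATP5SL in each replicate of WT, FA and FK; horizontal lines are group means and bars 1 SD (n = 3). SDHA is above WT in all FA and FK replicates, SDHB has its lowest mean in FK, and ATP5SL is below WT in all FA and FK replicates.

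ATP5SL was the 1 member of these 53 whose change in FK lay 1 or more on the log2 scale from the median of the genes it was compared with, and none did so in FA. Among all genes tested, 24.4% in FK and 10.8% in FA lay 1 or more from the median of all genes. ATP5SL, also known as DMAC2, carries an ATP synthase name, but its protein is an assembly factor for the membrane arm of complex I. It measured 18.5, 20.1 and 13.3 CPM in WT, 10.1, 11.8 and 10.3 in FA, and 7.48, 11.2 and 6.28 in FK. All FA and FK replicates were below all WT replicates. The log2 change was -1.06 ± 0.26 in FK, with an adjusted p of 0.0506 that just missed the threshold (edgeR), and -0.69 ± 0.25 in FA (adjusted p = 0.411). DESeq2 called the FK change (adjusted p = 0.00389), as did edgeR without FK replicate 3 (-0.91, adjusted p = 0.0236), and over all fits that left out 1 replicate the adjusted p ran from 0.0236 to 0.173. FK replicate 3 had the lowest ATP5SL of the 9, and the part of other cells in this difference was not tested.

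ATP5S, the related DMAC2L, was the other non-subunit tested, and it measured 15.4, 27.5 and 20.4 CPM in WT, 33.2, 16.6 and 18.4 in FA, and 13.2, 9.40 and 22.8 in FK. FK replicates 1 and 2 were below WT and replicate 3 within it (log2 -0.48 ± 0.39, edgeR adjusted p = 0.464), 0.76 below the complex V median. NDUFA4L2, a relative of NDUFA4 known as a hypoxia-induced gene, had 10, 9 and 3 counts over the WT, FA and FK replicates and was not tested. Next in distance from their complex in FK came SDHA, 0.60 above the other complex II genes, ATP5PO, and NDUFB2, 0.42 below complex I. In FA, ATP5G2 lay 0.49 below complex V and SDHC 0.45 above complex II.

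Few members had replicates that did not overlap with WT, at shares near or below those of all genes. In FK, 4 of 54 members were above WT in every replicate (NDUFA1, NDUFA9, SDHA and ATP5H), against 13.9% of all genes, and 1, ATP5SL, was below, against 13.4%. In FA, 8 were above (NDUFA1, NDUFA10, NDUFA12, SDHA, ATP5G3, ATP5H, ATP5J and ATP5J2), against 12.5%, and ATP5SL was below, against 12.4%. NDUFA1, SDHA and ATP5H were above WT in both groups. Both comparisons use the same WT replicates, so the second is no independent evidence. NDUFA10, the accessory subunit of complex I named there, measured 70.8, 63.5 and 67.1 CPM in WT and 88.0, 79.5 and 71.1 in FA. ATP5J2, the membrane subunit f, measured 42.6, 36.5 and 48.9 in WT and 71.7, 50.9 and 54.3 in FA. Their log2 changes were 0.24 ± 0.21 and 0.47 ± 0.21 (edgeR adjusted p = 0.757 and 0.495).

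The fitted changes came with narrow intervals. The 95% interval lay within 1 log2 unit of 0, a change of less than 2-fold, for 50 of 54 members in FK and 49 of 54 in FA, or 92.6% and 90.7%, against 35.4% and 41.9% of all genes tested, which were not matched to the members for level. The median standard error was 0.23 for the members and 0.34 for all genes. Those whose interval reached beyond 1 in FK were ATP5G1, ATP5I, ATP5S and ATP5SL, and in FA NDUFA3, SDHC, ATP5I, ATP5J and ATP5SL. Before adjustment, intervals excluded 0 for ATP5SL in FK and for NDUFA1, SDHC, ATP5J and ATP5SL in FA, and those of the other members included it.

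**Figure D4:**
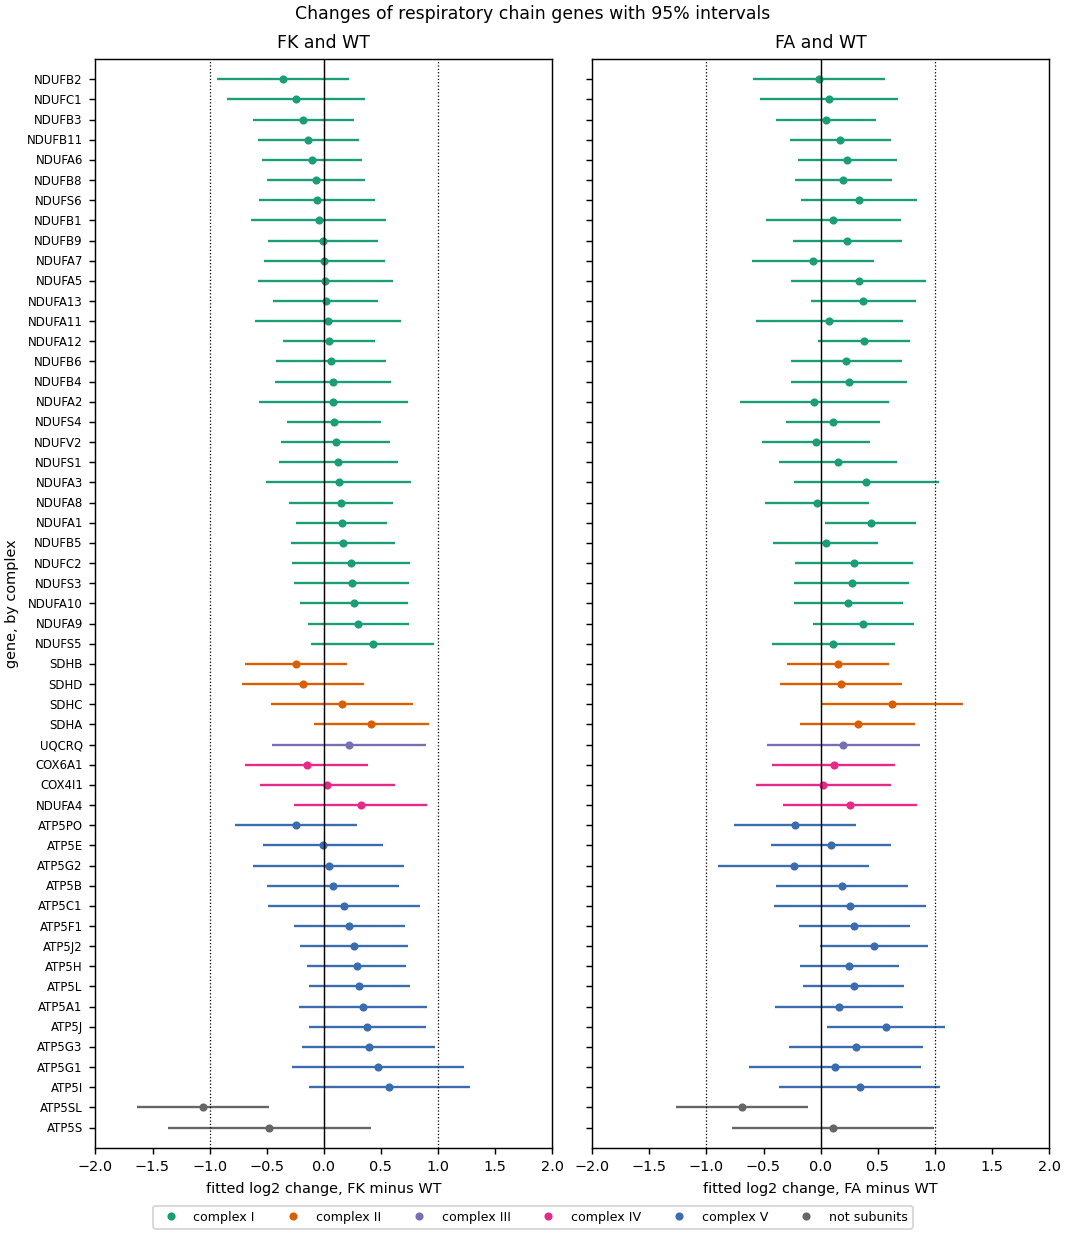
Fitted log2 change (points) with its 95% interval (lines) for 53 of the 54 tested genes between FK and WT (left) and FA and WT (right), coloured by complex; dotted lines mark a 2-fold change. Intervals of all plotted genes but 4 on the left and 5 on the right lie between the dotted lines, and that of ATP5SL is below 0 in both panels.

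Leaving out FK replicate 3 raised the number of members called between FK and WT from 0 to 5, in a fit that called 34.9% of all genes. NDUFS5 (log2 0.60, edgeR adjusted p = 0.0444), ATP5I (0.82, 0.0312), ATP5G1 (0.76, 0.0260) and ATP5G3 (0.61, 0.0326) rose and ATP5SL (-0.91, 0.0236) fell. For the 4 that rose, FK replicates 1 and 2 were the high ones and also those with raised erythroid, neutrophil and cell division markers, and the part of those cells was not tested. Leaving out any of the other 8 replicates gave 0 calls among the members. Those fits called only 22 to 154 of all genes, so few calls among the members could be looked for. Libraries of 1 set were mostly close for these genes, with a median SD of 0.09 to 0.21 on the log2 scale, except in FK replicate 2 with 0.29. There, library 1 held 6940 CPM of members, against 4760 to 5322 in the other 3 libraries.

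FA and FK were also compared directly. The members' median change, FA minus FK, was 0.09, against -0.02 for all genes, and the direction was not firm, since without scaling factors the 2 values were -0.13 and -0.21. Replicates did not overlap for 2 of 54 members, NDUFA6 and SDHB, both higher in FA, against 17.2% of all genes in either direction. NDUFA6, an accessory subunit that binds the acyl carrier protein, measured 107, 77.3 and 80.6 CPM in FA and 71.2, 74.7 and 63.2 in FK, a log2 difference of 0.34 ± 0.19 (edgeR adjusted p = 0.330). SDHB, with its values given above, differed by 0.39 ± 0.20, and its adjusted p of 0.277 was the smallest of the members. Intervals lay within 1 log2 unit of 0 for 51 of 54 members, or 94.4%, against 37.5% of all genes. Complex II had the highest median difference, 0.38 (0.17 without scaling factors), followed by 0.17 for complex I (-0.04), 0.00 for complex V (-0.23) and -0.01 for complex IV (-0.24).

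Genes around the respiratory chain were read from fixed lists. Assembly factors had no called gene in any comparison. Of all genes, 4.77% were called in FK, 0.167% in FA and 0% between FA and FK, so few calls could be looked for. Tested were 14 of 18 listed for complex I, 4 of 4 for complex II and 2 of 6 for complex III. For complexes IV and V, 5 of 24 and 4 of 6 were tested. List medians ran from -0.19 to 0.15 in FK and 0.10 to 0.24 in FA. The complex I factor with the smallest p was TMEM186, at 5.05, 5.96 and 4.00 CPM in WT, 8.54, 9.40 and 9.14 in FA, and 9.48, 9.65 and 6.94 in FK. Both groups were above WT in all replicates, without a call (edgeR, log2 0.80 ± 0.22, adjusted p = 0.0667 in FK, and 0.85 ± 0.22, adjusted p = 0.248 in FA). Of all genes, 13.9% in FK and 12.5% in FA were above WT in this way, and 13.4% and 12.4% below. For the other complexes these were SDHAF3 (-0.32 in FK, adjusted p = 0.323), LYRM7 (-0.60, 0.373), CMC1 (0.51 in FA, 0.418) and TMEM242 (0.47 in FA, 0.639). Among 16 electron carrier genes and other subunits, COQ10A, a coenzyme Q binding protein, was at 0.91, 0.81 and 0.81 CPM in WT, 0.58, 0.55 and 0.55 in FA and 2.96, 2.94 and 1.13 in FK, higher than WT in all of FK and lower in all of FA (1.48 ± 0.40 and -0.59 ± 0.40, adjusted p = 0.0653 and 0.674).

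The lists of biogenesis regulators and of mitochondrial DNA copying and transcription each held 1 called gene. Both were higher in FK than in WT, a comparison in which 4.77% of all genes were called. PPARGC1A, the coactivator that drives mitochondrial biogenesis and hepatic gluconeogenesis, was 1 of 10 tested regulators. It measured 9.90, 9.89 and 14.9 CPM in WT, 19.0, 17.1 and 18.5 in FA, and 37.3, 29.1 and 23.5 in FK, rising in FK by log2 1.37 ± 0.23 (edgeR adjusted p = 0.0314). FA lay above WT and below FK in every replicate (0.65 ± 0.23 against WT, adjusted p = 0.396). MGME1, a nuclease that maintains mitochondrial DNA, was 1 of 13 genes for its copying and transcription. It measured 1.68, 1.71 and 1.41 CPM in WT, 4.03, 2.35 and 3.53 in FA, and 5.32, 7.05 and 2.87 in FK, and rose in FK by 1.67 ± 0.37 (adjusted p = 0.0454). The medians of the 2 lists were 0.21 and 0.18 in FK and 0.07 and 0.21 in FA.

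The called list genes that were lower in FK than in WT were PDK2 and PINK1, whose functions follow from the lists they were read from. In that comparison 4.77% of all genes were called. PDK2, a kinase that inactivates pyruvate dehydrogenase, measured 95.9, 61.7 and 91.2 CPM in WT, 55.0, 44.7 and 46.1 in FA, and 12.1, 19.6 and 32.1 in FK, and fell by 1.96 on the log2 scale in FK (SE 0.35, edgeR adjusted p = 0.0340). It was 1 of 13 genes of pyruvate entry. PINK1, the kinase that marks damaged mitochondria for removal, measured 245, 254 and 286 CPM in WT, 214, 227 and 204 in FA, and 46.1, 94.2 and 73.8 in FK, and fell by 1.87 (SE 0.28, adjusted p = 0.0209). It was 1 of 11 genes of mitochondrial division and removal. PDK2 and PINK1 were below WT in all FA and FK replicates, and in FK replicate 3 as in replicates 1 and 2, but neither was called in FA (-0.77 ± 0.34 and -0.28 ± 0.27, adjusted p = 0.490 and 0.785). The 4 calls were fragile: of the 9 fits that left out 1 replicate, 1 called PPARGC1A, 1 MGME1, 1 PDK2 and 5 PINK1. The edgeR adjusted p ran up to 0.139, 0.163, 0.138 and 0.0881. Calls over all genes moved too, from 712 in the full fit to 5396 without FK replicate 3. The other fits that left out 1 replicate called 22 to 154 genes. In the same order of genes, log2 changes ran from 1.18 to 1.57, 1.36 to 1.93, -2.40 to -1.68 and -2.13 to -1.64. No gene of any list was called between FA and WT or between FA and FK, where 0.167% and 0% of all genes were.

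**Figure D5:**
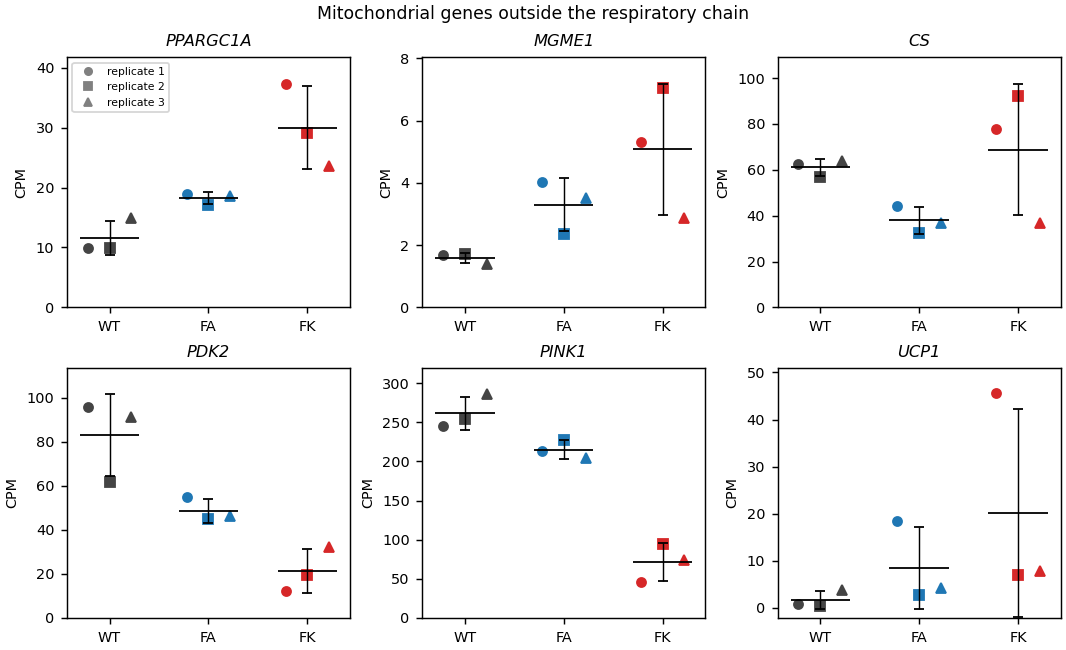
CPM (vertical axes) of PPARGC1A, MGME1, CS, PDK2, PINK1 and UCP1 in each replicate of WT, FA and FK; horizontal lines are group means and bars 1 SD (n = 3). PPARGC1A and MGME1 are above and PDK2 and PINK1 below WT in every FA and FK replicate, and CS is below WT in every FA replicate.

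The citric acid cycle, which supplies complexes I and II, had 0 of 14 tested genes called. Of all genes, 4.77% were called in FK and 0.167% in FA. The list median was 0.21 in FK (12 of 14 positive) and 0.05 in FA. CS, citrate synthase, was at 62.5, 56.8 and 63.9 CPM in WT, 44.4, 32.6 and 36.7 in FA, and 77.6, 92.0 and 36.7 in FK. FA was below WT throughout, and FK was split, with replicates 1 and 2 above WT and replicate 3 below (edgeR, log2 -0.69 ± 0.31, adjusted p = 0.497 in FA; 0.17 ± 0.31, adjusted p = 0.759 in FK). UCP1, the uncoupling protein best known from brown fat, measured 0.72, 0.34 and 3.76 CPM in WT, 18.5, 2.71 and 4.30 in FA, and 45.5, 6.92 and 7.82 in FK. FK was above WT in all replicates, led by replicate 1, and the change was not called (log2 3.64 ± 1.2, adjusted p = 0.0978). The 9 ADP, phosphate and uncoupling carriers that include UCP1 had medians of 0.10 in FK and -0.14 in FA. Neither the 11 mitochondrial proteases and chaperones, with SPG7 of smallest p (0.73 ± 0.26 in FK, adjusted p = 0.120), nor the 12 hypoxia genes, with EGLN3 (1.54 ± 0.46 in FK, adjusted p = 0.0792), held a called gene.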

How the data were processed

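Total RNA of liver was measured in 36 libraries made with a TruSeq RNA kit after trypsin treatment and TRIzol extraction, per the labels' protocols. The authors deposited 1 table of expected counts per gene, that is, estimated counts that had been made whole before deposit. Salmon 0.14.1 appears in the submitters' processing notes, without a role. Genome build, rounding step and strand setting are not stated in those notes or the labels, so overlapping and near-identical genes are uncertain. Libraries were placed in groups and replicates by title and the 4 libraries of a replicate summed. All genes past filterByExpr (14939) were fitted with edgeR 4.0.16 (R 4.3.3; TMM factors, quasi-likelihood F test on group, 9 sums together), and p-values adjusted by Benjamini-Hochberg over all of them, with calls at 0.05. Intervals are 95%, and each change is given with its standard error. Per-replicate levels are CPM. Medians, SDs and log ratios of per-replicate or per-library log2 CPM use a prior count of 2, which the fitted changes and the heat map do not. DESeq2 1.42.0 was an alternative. The fit was tested on simulated data.

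The genes and lists were chosen with earlier results of these data known. A member departs where its log2 change is 1 or more from the median of the other members of its complex, and the 3 non-subunits were set against complex V. Named genes are FAH, members called, departing, nearest to the median of their complex or listed as tissue forms, and called genes or the gene of smallest p of each other list. For list genes chosen by p, replicates that do not overlap with WT are favoured by that choice and are no separate evidence. Members named for a range, for a non-overlap or as subunits of complexes II, IV and V were chosen after their values were seen. Sequences and coordinates are not reported here, nor are the single values of 1 member, which counts and medians include. Replicate numbers did not pair the samples: the correlation of deviations from group means for same-numbered replicates was -0.09 to 0.10 over 9 pairs.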

Additional observations from a re-analysis of the deposited data

How the results depend on the processing

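Counts of members called stayed at 0 in all 3 comparisons with RLE size factors, no filter, a filter of 1 CPM, only the 2 groups compared, library 1 of each set alone, and library totals without scaling factors, which was chosen after seeing the data. Between FK and WT these fits called 685, 636, 619, 43, 189 and 879 of all genes, in that order. They called 23 to 235 between FA and WT and 0 between FA and FK, so few calls could be looked for there. A replicate block, with the number of the set as a term, also gave 0 in each comparison. That fit called 47 of 14939 genes between FK and WT, 3 between FA and WT and 0 between FA and FK. Treating the 36 libraries as separate replicates, which the labels do not support, called 18 members between FK and WT (beside 7372 of 12775 genes), 18 between FA and WT (4330 of 12775) and 16 between FA and FK (6984 of 12775). DESeq2 called 1 between FK and WT, where it called 17.5% of all genes. Leaving out 1 replicate gave 0 to 5 between FK and WT, in fits that called 22 to 5396 of all genes. The FK and WT median of complex I was 0.24 with library 1 of each set alone and 0.23 without scaling factors. That of complex II was -0.066 to 0.12 with 1 replicate left out and 0.13 without scaling factors. Between FA and FK, medians without scaling factors were 0.17 for complex II, -0.24 for complex IV and -0.23 for complex V. The cause of these shifts was not tested. PPARGC1A, MGME1, PDK2 and PINK1 were not called between FK and WT with the replicate block (edgeR adjusted p = 0.0824, 0.102, 0.0774 and 0.0566) or with only the 2 groups (0.0965, 0.113, 0.0965 and 0.0763). Over all genes those fits called 47 and 43, against 712 in the main fit. The spread between 3 replicates a group, with a median standard error of 0.23 for the members, limits what could be called, and depth limits NDUFA4L2 and the 4 untested complex IV forms.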
